A study of Mus musculus with 2 samples.

Results

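The 9 genes described here encode AP-1 transcription factors and 2 of their close relatives: the Jun family genes Jun, Junb and Jund, the Fos family genes Fos, Fosb, Fosl1 and Fosl2, the Batf family gene Batf3 and the small Maf gene Maff. They were found by symbol in the table of each library, and all 9 had reads in both libraries, out of 17431 genes with a read in either. The libraries were made from poly(A) RNA of cultured BALB/c mouse dermal cells, 1 library per cell type, from 23374716 fibroblast reads and 22981183 SKP reads, of which 81.65% and 85.13% mapped to genes. Fibroblasts came from mice at postnatal day 3 and grew in DMEM with 10% fetal bovine serum. Skin-derived precursors (SKPs), dermal cells that self-renew under growth factors, came from mice at postnatal day 4 and grew in a DMEM and F12 mixture with 40 ng/ml FGF2, 20 ng/ml EGF and 2% B27 supplement. Medium, growth factors and age therefore cannot be told apart from cell type, and with no replicates each difference is between 2 libraries and carries no test.

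AP-1 is a dimer of basic leucine zipper proteins. Jun proteins pair with each other or with Fos proteins, whereas Fos proteins do not form stable pairs among themselves and need a Jun partner to bind DNA. Serum, FGF and EGF act through MAP kinases to switch on several of these genes within minutes, and in skin AP-1 is known for its part in wound repair, protease expression and fibroblast activation.

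AP-1 family RNA amounted to about the same level in both cultures, but it was made up of different members. Jun was 4.03-fold higher in the SKP library and Fosl1 was 3.22-fold higher, while Fosl2 was 2.40-fold higher in the fibroblast library. Junb, Fos and Fosb differed little, and Jund and Maff were under 2-fold higher in the fibroblast library. RPKM is the read count scaled to gene length in kilobases and to the library's counted reads. A gene counted as expressed with 1 RPKM and 20 reads in either library, and a call needed a 2-fold gap plus a counting interval that left out equality. By that rule 3 of the 7 expressed members were called, 2 of them higher and 1 lower in SKPs, where 18.5% of 12053 expressed genes were called (12.1% higher and 6.41% lower). Each range in parentheses is an exact interval at 95% for counting error, with no allowance for biological spread.

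Among the Jun family, Jun, the founding member and a strong activator of transcription, had 989 fibroblast reads and 4102 SKP reads. Its level was 16.9 RPKM (15.8 to 17.9) in fibroblasts and 67.9 RPKM (65.9 to 70.0) in SKPs. The intervals lay far apart, and the level ratio was 4.03 in favour of SKPs (3.76 to 4.32). Among expressed genes, 698 (5.79%) had a ratio at least as high. Fewer cells that make a transcript and less RNA per cell cannot be told apart in such bulk samples.

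Junb, which can oppose Jun on some promoters, was level between the cultures. It stood at 48.1 RPKM (45.8 to 50.5) from 1628 fibroblast reads and at 47.1 RPKM (44.8 to 49.4) from 1641 SKP reads. The intervals overlapped, and the ratio of SKP to fibroblast level was 0.979 (0.914 to 1.05). Jund, the member usually expressed most steadily through the cell cycle, stood at 79.1 RPKM (76.7 to 81.5) in fibroblasts and 49.0 RPKM (47.1 to 50.9) in SKPs. Fibroblasts led by 1.61-fold (1.54 to 1.70), with intervals that did not overlap and a ratio below the 2-fold limit.

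The Fos family was dominated in both cultures by Fosl2, which encodes Fra-2, a Fos protein without the strong activation domain of c-Fos. Fosl2 had 4341 fibroblast reads and 1863 SKP reads. Its level was 40.1 RPKM (38.9 to 41.3) in fibroblasts and 16.7 RPKM (16.0 to 17.5) in SKPs, a 2.40-fold difference in favour of fibroblasts (2.27 to 2.53). Among expressed genes, 525 (4.36%) had a ratio of SKP to fibroblast level that low or lower. Fosl1, which encodes the related Fra-1, went the other way. It stood at 2.26 RPKM (1.77 to 2.85) from 71 fibroblast reads and at 7.27 RPKM (6.37 to 8.27) from 235 SKP reads, a 3.22-fold difference in favour of SKPs (2.46 to 4.25). Fosl2 was 17.7 times the level of Fosl1 in fibroblasts and 2.30 times in SKPs.

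Fos itself, the classic immediate-early gene, was low in both cultures. It stood at 4.69 RPKM (4.04 to 5.43) from 182 fibroblast reads and 5.81 RPKM (5.09 to 6.61) from 232 SKP reads. Its ratio of 1.24 in favour of SKPs had an interval just clear of equality (1.02 to 1.51). Fosb, a second member with rapid and brief induction, lay under 1 RPKM in both, at 0.905 (0.695 to 1.16) from 63 fibroblast reads and 0.963 (0.749 to 1.22) from 69 SKP reads. No difference in Fosb was detectable at this depth, with a ratio of 1.06 (0.745 to 1.52).

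The promoters of Jun, Fosl2 and Fos are shown because these genes gave the largest difference in each direction and one of the smaller ones. Each line gives the 250 bases before the RefSeq start site, 5′ to 3′ on the gene's strand, from RefSeq on GRCm38.p6, whereas the deposited files use mm9. Capitals mark matches on either strand to TGACGTCA, the cyclic AMP response element bound by CREB, ATF and Jun dimers, to its core TGACGT, to the variant TGACATCA, to the AP-1 element TGANTCA, or to the CArG box of serum response factor. TGACGT lies within TGACGTCA.
Jun, chr4:95052223-95052472, minus strand: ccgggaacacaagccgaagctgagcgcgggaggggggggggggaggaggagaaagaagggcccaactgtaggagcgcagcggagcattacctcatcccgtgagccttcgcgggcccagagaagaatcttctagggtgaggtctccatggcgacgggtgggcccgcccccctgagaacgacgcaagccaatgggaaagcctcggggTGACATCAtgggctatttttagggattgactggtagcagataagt
Fosl2, chr5:32136222-32136471, plus strand: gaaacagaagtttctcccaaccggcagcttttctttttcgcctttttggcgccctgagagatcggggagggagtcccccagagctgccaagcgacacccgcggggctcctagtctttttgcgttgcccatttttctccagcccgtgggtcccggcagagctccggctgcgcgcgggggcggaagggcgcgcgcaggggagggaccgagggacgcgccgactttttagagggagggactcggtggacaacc
Fos, chr12:85473640-85473889, plus strand: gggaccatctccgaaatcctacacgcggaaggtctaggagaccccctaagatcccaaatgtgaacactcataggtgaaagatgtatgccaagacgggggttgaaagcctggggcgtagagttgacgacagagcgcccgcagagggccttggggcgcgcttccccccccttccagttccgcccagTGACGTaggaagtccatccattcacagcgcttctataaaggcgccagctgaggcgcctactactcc
The Jun promoter holds TGACATCA from 45 to 38 bases before the start, and the Fos promoter holds TGACGT from 66 to 61 bases before it. The Fosl2 window holds none of these letters. Of 32817 RefSeq promoter windows of that length, 2.93% hold TGACATCA, 6.46% TGACGT, 1.55% TGACGTCA, 6.75% TGANTCA and 1.47% a CArG box. Promoters of 8 of the 9 members were found, the exception being Fosl1. Beside Jun and Fos, 1 other member had a match: Maff, with 3 annotated starts, holds TGACGTCA before the second and TGACATCA before the third. A match describes the letters in the window and not a bound site. Bases outside the window were not searched, so a motif missing here can still lie further upstream.

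Batf3, needed for a class of dendritic cells, was hardly detected, with 3 reads in each library, or 0.229 RPKM in fibroblasts and 0.222 in SKPs. That lay below the expression filter, and the ratio of SKP to fibroblast level, 0.971, had a very wide interval (0.130 to 7.25). A floor of 3 reads stood in only where a library had 0 reads, so it did not apply to Batf3. Maff, a small Maf protein that lacks an activation domain and pairs with cap'n'collar factors, stood at 11.5 RPKM (10.3 to 12.7) from 380 fibroblast reads and at 6.22 RPKM (5.41 to 7.11) from 212 SKP reads. It was 1.85-fold higher in fibroblasts, and its interval reached past the 2-fold limit (1.56 to 2.19).

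**Figure D1:**
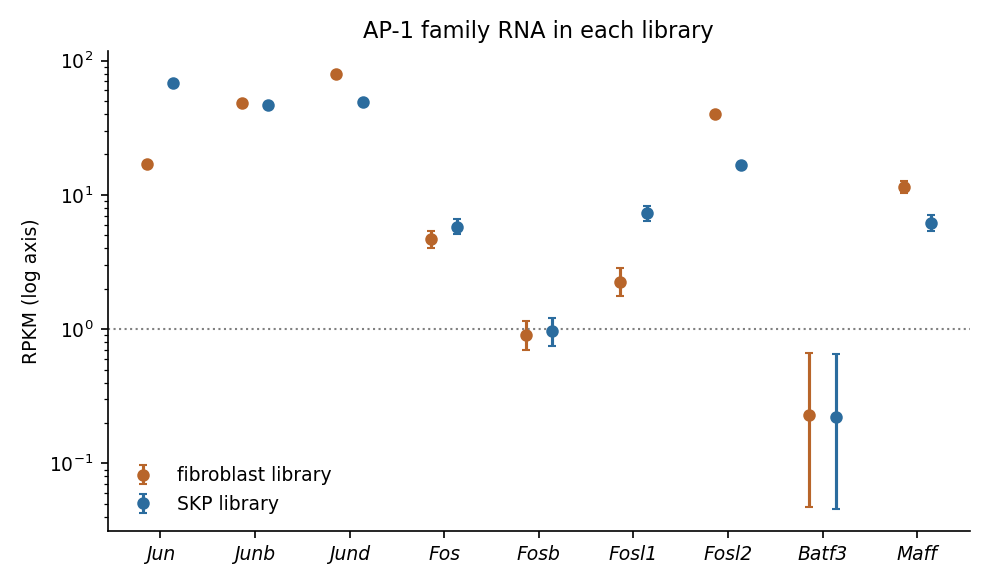
RPKM of the 9 members on a log axis, in the fibroblast library (orange) and the SKP library (blue), with 95% exact Poisson intervals, and a dotted line at 1 RPKM. Jun and Fosl1 sit higher in SKPs, Fosl2, Jund and Maff sit higher in fibroblasts, and Fosb and Batf3 lie below the line in both.

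Ordered by level per length, the fibroblast library ran from Jund through Junb, Fosl2, Jun, Maff, Fos, Fosl1 and Fosb to Batf3, and each neighbouring pair was apart by more than its counting interval. The closest pair was Junb and Fosl2, at a ratio of 1.20 (1.13 to 1.27). In the SKP library Jun came first, followed by Jund, Junb, Fosl2, Fosl1, Maff, Fos, Fosb and Batf3. There Jund and Junb were not apart beyond counting error (ratio 1.04, 0.978 to 1.11), nor were Fosl1 and Maff (1.17, 0.968 to 1.42) or Maff and Fos (1.07, 0.884 to 1.29). Jun was at rank 4 in fibroblasts and rank 1 in SKPs. Fosl2 was 2.38 times the level of Jun in fibroblasts, whereas Jun was 4.07 times the level of Fosl2 in SKPs.

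Summed over the 9 members, the level was 204 RPKM (199.7 to 208) in fibroblasts and 201 RPKM (197 to 205) in SKPs, so the total was nearly equal. The 3 Jun family genes summed to 144 RPKM in fibroblasts and 164 in SKPs. The 4 Fos family genes summed to 47.9 and 30.8 RPKM. The summed Jun family level was thus 3.01 times that of the Fos family in fibroblasts and 5.33 times in SKPs. Jun made up 8.28% of the summed RPKM in fibroblasts and 33.8% in SKPs, while Jund went from 38.8% to 24.3% and Fosl2 from 19.7% to 8.30%. Junb held 23.6% and 23.4%, and Fosl1 held 1.11% and 3.62%. As a share of the family's reads, not per length, Jun took 8.35% (7.86 to 8.86) and 37.2% (36.3 to 38.1).

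**Figure D2:**
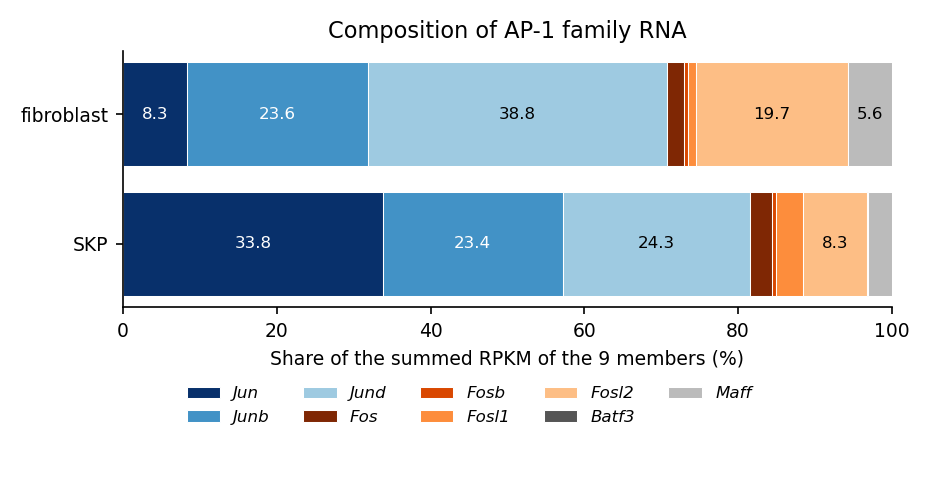
Share of the summed RPKM of the 9 members held by each gene, as stacked bars from 0 to 100% for the fibroblast and the SKP library. The Jun segment grows from 8.28% to 33.8% between the bars, and the Jund and Fosl2 segments shrink from 38.8% to 24.3% and from 19.7% to 8.30%.

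The reads behind the Fosl1 difference covered an unusually small part of the gene. The authors' coverage values put 35.19% of its 1705 bases under fibroblast reads and 39.65% under SKP reads. Genes of at least 1000 bases whose mean read depth lay within 1.25-fold of that of Fosl1 had a median coverage of 72.05% (760 genes) and 91.64% (1508 genes), and only 20 and 14 of them were covered as little. In RefSeq, Fosl1 overlaps Ccdc85b, a coiled-coil protein gene with 306 fibroblast and 449 SKP reads, and no other member overlaps an annotated gene. With strand use not given in the sources used here, reads of such a pair cannot be told apart. Whether uneven coverage bears on the Fosl1 ratio, or on its level, rank and share beside other members, was not tested. Jun (95.58% and 97.05%) and Fosl2 (98.90% and 97.30%) were covered nearly from end to end, and Jund (91.00% and 93.50%) a little less.

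**Figure D3:**
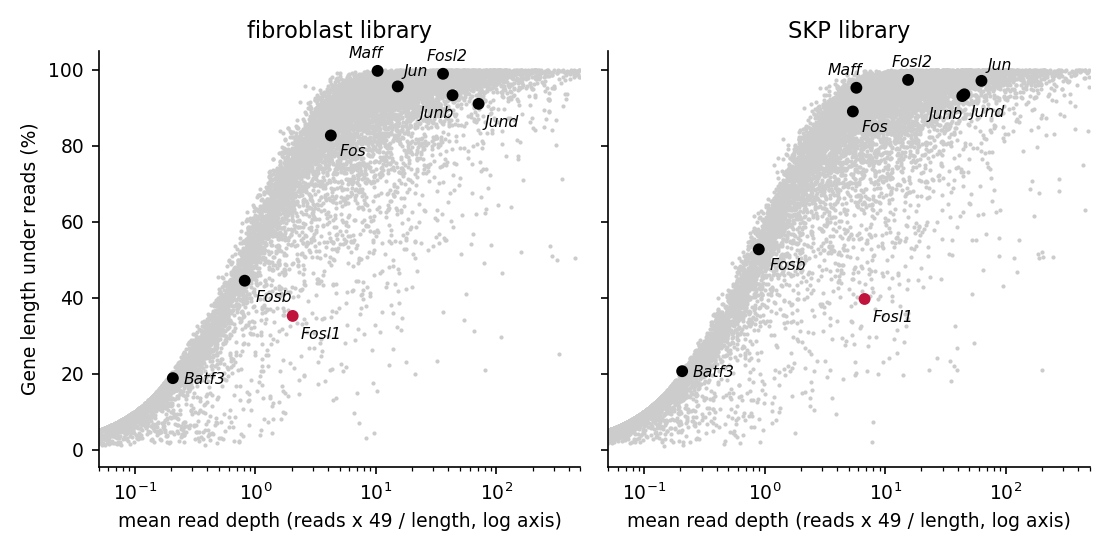
Share of the gene length under reads (%) against mean read depth on a log axis, in the fibroblast library (left) and the SKP library (right), with genes of at least 1000 bases in grey and the members in black. Fosl1, in red, lies far below genes of like depth in both panels, and the other members lie within the grey band.

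Partners that compete for the same dimers were read beside the members. For this list and each list below, the share to compare is that of all expressed genes, 12.1% called higher and 6.41% lower. Of 4 other factors that pair with Jun or Fos, 3 were expressed: SKPs had 1 higher, 0 lower and 2 uncalled, and the median log2 ratio was -0.79 beside -0.01 over all expressed genes. The 1 higher was Batf, a lymphoid partner of Jun, at 3.33 RPKM against 0.901 in fibroblasts and 3.69-fold higher (2.06 to 7.02), from 57 and 15 reads. Jdp2, a repressor that dimerises with Jun, stood at 29.3 RPKM in SKPs and 57.2 in fibroblasts and was 1.95-fold higher in fibroblasts (1.80 to 2.12). Atf3, a stress-induced partner, was low, at 1.09 RPKM in SKPs and 1.89 in fibroblasts. Batf2 had 13 SKP reads and 2 fibroblast reads and lay below the expression filter.

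Of 6 Maf family genes read here, Maff included, 4 were expressed, with 0 higher in SKPs, 1 lower and 3 uncalled (median log2 ratio -0.88). Maf, a large Maf with an activation domain, was 2.73-fold higher in fibroblasts (2.55 to 2.93), at 43.8 RPKM against 16.0 in SKPs. The small Maf genes Mafk (7.65 RPKM in fibroblasts, 4.18 in SKPs) and Maff both had lower SKP levels, under 2-fold apart, while Mafg was level at 16.7 and 16.3. Mafa and Nrl, with 9 and 2 SKP reads against 5 and 1 fibroblast reads, lay below the filter.

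**Figure D4:**
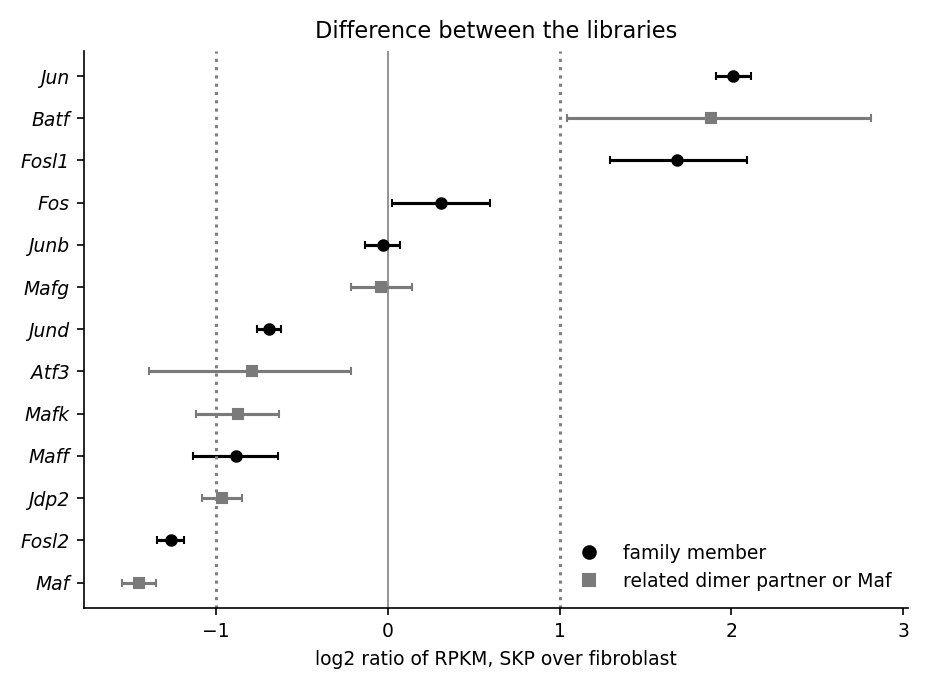
Log2 ratio of RPKM, SKP over fibroblast, for the 7 expressed members (black circles) and the expressed related dimer partners and Maf genes (grey squares), with 95% exact counting intervals and dotted lines at 2-fold. Jun, Fosl1 and Batf lie to the right of the upper line, and Fosl2 and Maf to the left of the lower one.

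Cap'n'collar and Bach factors, which pair with small Mafs at antioxidant response elements, had 4 of 6 genes expressed, with 2 higher in SKPs, 0 lower and 2 uncalled (median log2 ratio 0.81). The repressor gene Bach2 was 3.14-fold higher in SKPs (2.31 to 4.32) at only 1.12 RPKM against 0.358. Nfe2l2, which encodes NRF2, the oxidative stress regulator, stood at 97.6 RPKM against 48.8 and lay right on the 2-fold limit, with a log2 ratio of 1.00. Bach1 (12.0 RPKM in SKPs, 7.79 in fibroblasts) and Nfe2l1 (64.8 and 85.6) were not called. Of 13 ATF and CREB genes, which can pair with Jun or bind the same element, all were expressed and 3 were higher in SKPs, 0 lower and 10 uncalled (median log2 ratio -0.10). Over all expressed genes, 18.5% were called in either direction. Higher in SKPs were Creb5 (5.20-fold, 3.64 to 7.60), Atf7 (2.42-fold) and Creb3l2 (2.11-fold). Reads covered only 49.84% of Atf7 in SKPs and 53.61% in fibroblasts, and whether that bears on its ratio was not tested. The most abundant of these genes was Atf5, at 345 RPKM in SKPs and 458 in fibroblasts, and Creb3 stood at 35.9 and 52.8.

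Genes for the kinases and factors that act upstream of Fos and Jun were mostly level. Of 26, 25 were expressed, and SKPs had 2 higher, 0 lower and 23 uncalled (median log2 ratio 0.14). The 2 higher were Rps6ka2, an ERK-activated kinase, at 36.4 RPKM against 7.13 (5.11-fold, 4.72 to 5.54), and Elk4, a partner of serum response factor, at 8.34 against 3.21 (2.60-fold). Map2k1, which encodes MEK1, stood at 32.6 RPKM in SKPs and 64.5 in fibroblasts and Mef2c at 6.28 and 3.25, both just under 2-fold apart. The ERK gene Mapk3 had the highest level and was even, at 103 and 98.7 RPKM. These values are of RNA and say nothing of kinase activity. All 12 genes for AP-1 turnover and cofactors were expressed and 0 were called in either direction (median log2 ratio 0.03). Those furthest apart were Cops5 (33.8 RPKM in SKPs, 47.9 in fibroblasts), Zfp36l2 (68.5 and 51.8), Cnot1 (28.4 and 22.7) and Fbxw7, a ubiquitin ligase subunit that marks Jun for destruction (3.14 and 3.86). Zfp36l1, whose product speeds decay of short-lived mRNA, was the most abundant, at 85.5 and 81.3.

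Other immediate-early genes, switched on by the same signals, were apart in both directions. Of 26, 23 were expressed, and SKPs had 9 higher, 6 lower and 8 uncalled (median log2 ratio -0.08). The zinc finger genes Egr2 (35.9 RPKM against 0.914 in fibroblasts) and Egr3 (9.95 against 0.499) were 39.2-fold and 19.9-fold higher in SKPs. Dusp6, which encodes an ERK phosphatase, was 11.2-fold higher (10.1 to 12.3). Ctgf, a matricellular protein gene, was 21.0-fold higher in fibroblasts (18.4 to 24.0), and Cyr61, the most abundant of the list in the fibroblast library, was 2.66-fold higher there (2.55 to 2.77). Chosen after their values were seen, Egr1 (94.3 RPKM in SKPs, 17.3 in fibroblasts, 5.45-fold) and Nr4a1 (6.96 in SKPs, 28.7 in fibroblasts, 4.12-fold) show that widely used markers of acute induction differed in opposite directions, while Fos differed by 1.24-fold.

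Genes widely described as AP-1 targets were mostly higher in SKPs. All 24 were expressed, and SKPs had 16 higher, 2 lower and 6 uncalled, with the median log2 ratio at 1.48 beside -0.01 over all expressed genes. Several of these genes were known to be high in the SKP library when the list was drawn up, so the count is no independent evidence of its direction. The collagenase gene Mmp1a had 202 SKP reads and 1 fibroblast read, a ratio of 196 (34.8 to 7788), and its split from the near copy Mmp1b is uncertain. Mmp9, the gelatinase gene, was 133-fold higher (111 to 161), the stromelysin gene Mmp3 68.7-fold (64.4 to 73.4) and the macrophage elastase gene Mmp12 31.1-fold (19.3 to 53.9). The 545 SKP reads of Mmp12 covered only 47.49% of its length, and whether that bears on its ratio was not tested. Spp1, which encodes osteopontin, had the highest level, at 3709 RPKM in SKPs and 824 in fibroblasts. The 2 genes lower in SKPs, named after their values were seen, were the cytokine gene Il6, with 2 SKP reads and 35 fibroblast reads, and the angiogenic factor gene Vegfa, at 25.6 RPKM against 55.5. Of the 20 members at 1 RPKM or more in both libraries, a restriction added after seeing the data, 13 were higher and 1 was lower.

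Heat shock genes can be induced together with Fos and Jun when tissue is handled, and the part of handling in the values here was not tested. Of 11 expressed, SKPs had 0 higher, 3 lower and 8 uncalled (median log2 ratio -0.71). Hspb1 was 5.55-fold higher in fibroblasts (5.01 to 6.17), Hspa1b 2.82-fold (its split from the near copy Hspa1a is uncertain), and Hsph1 2.19-fold. Hsp90aa1 stood at 113 RPKM in SKPs and 211 in fibroblasts, and Hspa8, the most abundant, at 929.6 and 1029.

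**Figure D5:**
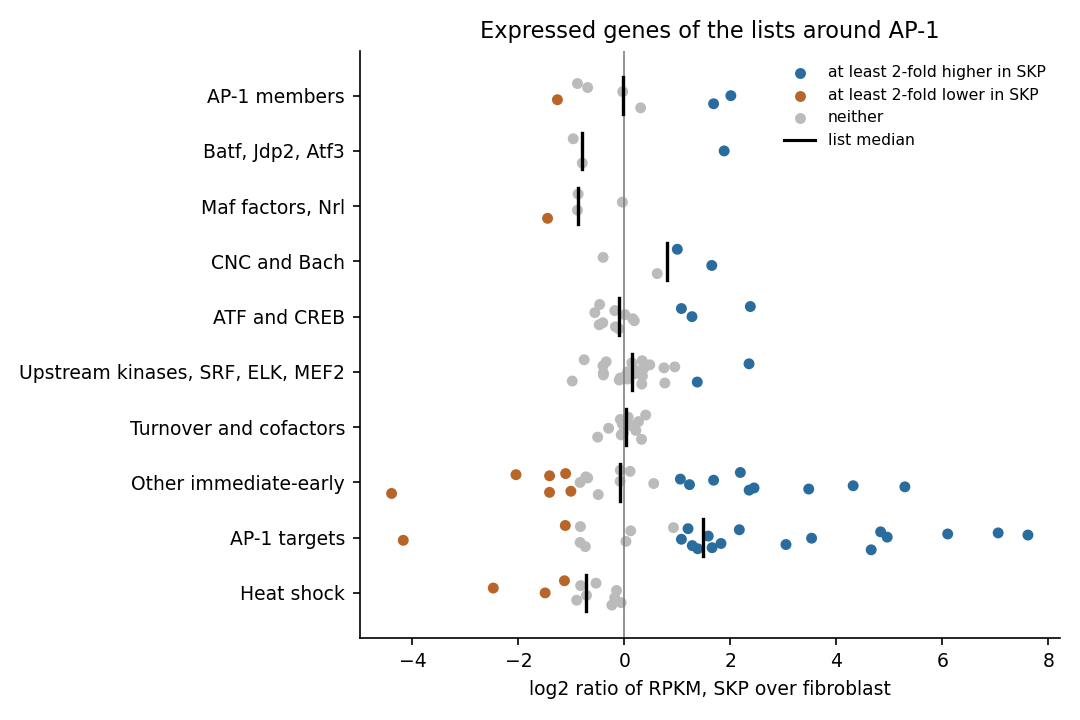
Log2 ratio of RPKM, SKP over fibroblast, of each expressed gene in the 10 lists, coloured by whether it was called higher in SKPs (blue), lower (orange) or not called (grey), with the list median as a black bar. AP-1 targets have a median of 1.48 and heat shock genes -0.71, while upstream genes and cofactors gather near 0.

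Both libraries held markers of dermal mesenchyme: all 11 dermal fibroblast markers reached 1 RPKM in each, and 8 SKP markers did so in the SKP library and 7 in the fibroblast library, with summed levels of 5609 and 2449 RPKM. Of the 11 dermal fibroblast markers, 4 were called higher in SKPs (Lum, Dcn, Col3a1 and Dpt), 2 lower (Thy1 and Col1a1) and 5 neither. Of the 8 SKP markers, 3 were called higher in SKPs and 0 lower. Single abundant genes weighed heavily on the SKP marker sums. Crabp1 stood at 4616 RPKM in SKPs and 1361 in fibroblasts. Without it the sums were 993 and 1088 RPKM, most of which was Fn1, at 758 and 877. Summed markers of several other cell types had higher SKP levels, as did Jun, Fosl1, Batf and most AP-1 targets. Summed marker RPKM in SKPs and fibroblasts was 151 and 0.834 for mast cells (9 and 6 of 9 genes with reads), 44.5 and 3.58 for keratinocytes (12 and 10 of 13), and 33.3 and 5.44 for macrophages and leukocytes (13 and 12 of 13). Expressed were 7, 8 and 6 of these markers, of which 7, 8 and 5 were called higher in SKPs and 0 lower. Fcer1a and Ms4a2 had only 2 and 1 SKP reads. Lyz2 and Cd68, at 12.7 and 8.90 RPKM, held most of the macrophage and leukocyte sum in SKPs. The sum was 4.83 and 1.61 for endothelium (6 and 6 of 6 with reads) and 540.4 and 352 for adipocytes (9 and 7 of 9). Only 1 endothelial marker was expressed, Cdh5, which held most of that sum at 3.57 and 0.787 RPKM. Below the filter, Kdr was lower in SKPs, at 0.328 and 0.547 RPKM. Among the adipocyte markers 7 were called higher in SKPs and 1 lower, Lpl, without which the sums were 391 and 30.5. Dendritic cell markers were mixed, with 1 higher, Zbtb46, and 1 lower, Cd74, of 3 expressed. Their sums were 9.67 and 7.76 (8 and 7 of 10 with reads), or 6.15 and 7.57 without Zbtb46. Of 7 smooth muscle and myofibroblast markers, 6 were higher in fibroblasts, as was Fosl2, and 1, Des, was higher in SKPs. Their summed level was 88.5 RPKM in SKPs and 3179.6 in fibroblasts (7 of 7 genes with reads in both). At 0 in both libraries were Flt3, Cd207 and Krt15, and at 0 in fibroblasts alone were Ccr7, Emr1, Cpa3, Mcpt4, Fcer1a, Krt1, Ivl, Lep and Retn. The leukocyte gene Ptprc stood at 0.114 RPKM in SKPs, from 12 reads, and 0.0195 in fibroblasts, from 2. The part of these cells in the differences of the members, Batf and the AP-1 targets was not tested.

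The authors' deposited log2 ratios rest on the same counts and equal those computed here, so they are no independent check. Turned to SKP over fibroblast, they were 2.01 for Jun, 1.68 for Fosl1 and -1.26 for Fosl2. Their shorter table, limited to an absolute log2 ratio of at least 1, which is the same 2-fold limit, holds these 3 members and no other.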

How the data were processed

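Poly(A) RNA of 1 fibroblast and 1 SKP library was sequenced in 49-base reads, per the file headers of the deposited mapping tables. The authors mapped 81.65% of 23374716 fibroblast reads and 85.13% of 22981183 SKP reads to genes with at most 2 mismatches, per those class names, and the deposited percent values are shares of total reads. The deposited count per gene is a whole number without normalization and summed to 18406244 and 18949264 reads, per the file headers. Although the header calls these reads unique, they outnumber the single-match reads of the mapping tables by 3924587 and 4370357, so the split between close relatives is uncertain. The authors' RPKM equals that count scaled to gene length and to counted reads, checked for every gene in each file (13 genes, of which 0 were expressed, have another length in the other file), and the deposited coverage is the percent of gene length under reads. The authors' table adds a log2 ratio, a p-value and an FDR, of which the log2 ratio was compared and the FDR served to check their selection. All 2659 rows of the authors' shorter table have an absolute log2 ratio of at least 1 and an FDR up to 0.001. Per the submitters' processing notes, the build was mm9. Not given in the sources used here are the aligner, the annotation and the use of strand.

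Ratios were computed with exact (Clopper-Pearson) intervals at 95% from the counts with scipy 1.17.1 and pandas 2.3.3 (Python 3.11.15, numpy 2.4.6) and plotted in matplotlib 3.10.9. The code for the calls was run on simulated Poisson counts, which hold no biological spread and so cannot show how the calls fare against it. Levels have exact Poisson intervals, and the interval of a summed level uses a gamma distribution with the same mean and variance. PCR duplicates are not independent molecules. With 1 library per group, no test, count model or leave-one-out was run. A gene of the Maf list is not reported here. The members and lists were chosen with earlier results of these data known. Besides every member and the genes of the dimer partner and Maf lists other than the unreported one, the text names up to 4 expressed genes with the largest ratio and the 1 with the highest level from each list. Alternatives varied the scale, the scaling between libraries, the filter, the fold called and the source of the ratio.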

Additional observations from a re-analysis of the deposited data

How the results depend on the processing

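With the 10 most abundant genes left out of the totals, with upper quartile, median ratio or single-match scaling, on the log2(RPKM + 1) scale and with the authors' log2 ratios, Jun stayed between 1.95 and 2.04, Fosl1 between 1.34 and 1.72 and Fosl2 between -1.30 and -1.21. Jun and Fosl1 were called higher and Fosl2 lower under each of these and under both other expression filters. Of 48 such values over 8 members, 47 kept their sign, the exception being Junb at 0.00 under single-match scaling. That count is little of a check. The authors' log2 ratios equal the main ones, and the log2(RPKM + 1) scale cannot change a sign. Each scaling shifts every log2 ratio by 1 constant, from -0.04 to 0.03, so only a gene near equality could change sign. Calling at 1.5-fold gave 5 members, as Jund and Maff joined, and calling at 4-fold left 1, Jun. At 4-fold the lists around the family held 21 called genes in place of 45, 9 AP-1 targets were higher in place of 16 and 1 was lower, and 2 immediate-early genes were lower in place of 6. AP-1 targets lower in SKPs numbered 5 at 1.5-fold, 1 at RPKM 5 or more and 1 among genes at RPKM 1 in both libraries. Without Batf3 and Maff, Jun made up 8.78% of family RPKM in fibroblasts and 34.9% in SKPs. As a share of the reads of all 9 members it made up 37.2% in SKPs. Over all genes, 1455 were higher and 772 lower in SKPs, against 2197 and 1085 without an expression filter, 828 and 478 at RPKM 5 or more, 2255 and 1716 at 1.5-fold, 705 and 241 at 4-fold, and 1098 and 508 on the log2(RPKM + 1) scale. No paired analysis was possible because each group held 1 library. Reads limit Fosb and Batf3 most.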

Other observations

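Leucine zipper factors outside AP-1 were read from a list of 12 added after the members' values were seen. Of these, 11 were expressed, and SKPs had 2 higher, 2 lower and 7 uncalled (median log2 ratio -0.38). Over all expressed genes, 12.1% were higher and 6.41% lower. Cebpa, a regulator of fat cell differentiation, stood at 24.0 RPKM in SKPs against 7.93 in fibroblasts (3.02-fold, 2.69 to 3.40), and Hlf, of the circadian PAR group, at 4.62 against 1.01 (4.59-fold, 3.71 to 5.72). Of 9 adipocyte markers, 7 were also higher in SKPs and 1, Lpl, was lower, and their part in the Cebpa value was not tested. Lower in SKPs were the stress gene Ddit3, which encodes CHOP, at 42.9 RPKM against 86.7 (2.02-fold higher in fibroblasts, 1.84 to 2.21) and Nfil3 at 10.1 against 22.3 (2.22-fold). Cebpb, at 62.2 and 92.2 RPKM, and Xbp1, at 82.2 and 78.6, were not called, and Cebpe had no read in either library.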
